A study of Mus musculus with 10 samples.

Results

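Fabp7, Gfra3, Cdh19, Erbb2, Erbb3 and Nrg1, genes of Schwann cell precursors, of early glia and of the neuregulin signal on which they depend, were examined in sorted neural crest cells with and without a stabilised p53. The 6 genes were taken by symbol from the authors' comparison table and matched by Ensembl identifier to the count table, which lists 49671 genes. Each library held the polyadenylated RNA of GFP-positive cells sorted from 1 mouse embryo at embryonic day 10.5, on a mixed 129/Sv-C57BL/6 background. All 10 embryos carried Wnt1Cre, which drives Cre recombinase in the forming neural crest and the dorsal neural tube, and 1 copy of R26mTmG, a reporter that turns green where the recombinase has acted. The 5 control embryos were littermates with normal p53 (Wnt1Cre;R26mTmG;p53+/+). The 5 embryos called p53_activated also carried 1 copy of p53LSL-25,26 (Wnt1Cre;R26mTmG;p53LSL-25,26/+), an engineered allele that makes a stabilised p53 protein once the recombinase removes its stop cassette, beside 1 normal copy. Because Wnt1Cre acts in the neural tube as well, the sorted cells can include neural tube cells.

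Schwann cell precursors are neural crest cells that travel with growing axons and give rise to Schwann cells, and also to some melanocytes and autonomic neurons. Axons present neuregulin 1, the product of Nrg1, to these cells. It binds the receptor ERBB3, whose own kinase is weak, and ERBB3 signals by pairing with ERBB2, an active kinase that binds no known ligand by itself. Gfra3 encodes the co-receptor that presents the growth factor artemin to the kinase RET. Fabp7 encodes a fatty acid binding protein of early glia and of radial glia in the neural tube, and Cdh19 encodes a type II cadherin that marks Schwann cell precursors.

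Library totals ran from 12368058 to 28379562 counts, and 14528 genes had enough counts to be tested. The p53 target Cdkn1a, read as a check of the labels, was at 7.93 ± 1.59 CPM (counts set to a common library size, after TMM scaling) in control and 105 ± 11.9 CPM in p53_activated libraries (SD, n = 5 each). Neural crest markers were present in both groups. The summed level of 8 of them, Sox10 and Tfap2a among them, was 221 to 272 CPM in control and 209 to 268 CPM in p53_activated libraries. Snai2, a crest regulator, was the 1 of the 8 called lower (17.0 ± 7.83 to 8.83 ± 1.69 CPM, fitted log2 change -0.94 ± 0.26, edgeR adjusted p = 0.0416), with overlap between the groups. That call was lost in 11 of 21 other settings, among them when control replicate 1 or 2 or p53_activated replicate 1, 2, 3 or 5 was left out, and without control replicates 1 and 2 the value was -0.41. Control replicates 1 and 2 and p53_activated replicate 4 stood apart in several genes described here.

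Of the 6 genes, Fabp7 was lower in p53_activated embryos and none was higher. Gfra3 was at 47.1% of its control mean but missed the threshold, Erbb2 and Erbb3 were at 84.4% and 81.8% of theirs and did not pass the test, and Nrg1 was near its control level. Cdh19 had too few counts to be tested. So 1 of 5 tested genes was called lower (edgeR quasi-likelihood test, adjusted p below 0.05), where 2.74% of all tested genes were called lower, 4.49% higher and 7.23% in either direction. The median log2 fold change of the 5 was -0.28, against -0.01 over all tested genes. In RNA of a whole sorted population, fewer cells of a type and less RNA per cell cannot be told apart.

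**Figure D1:**
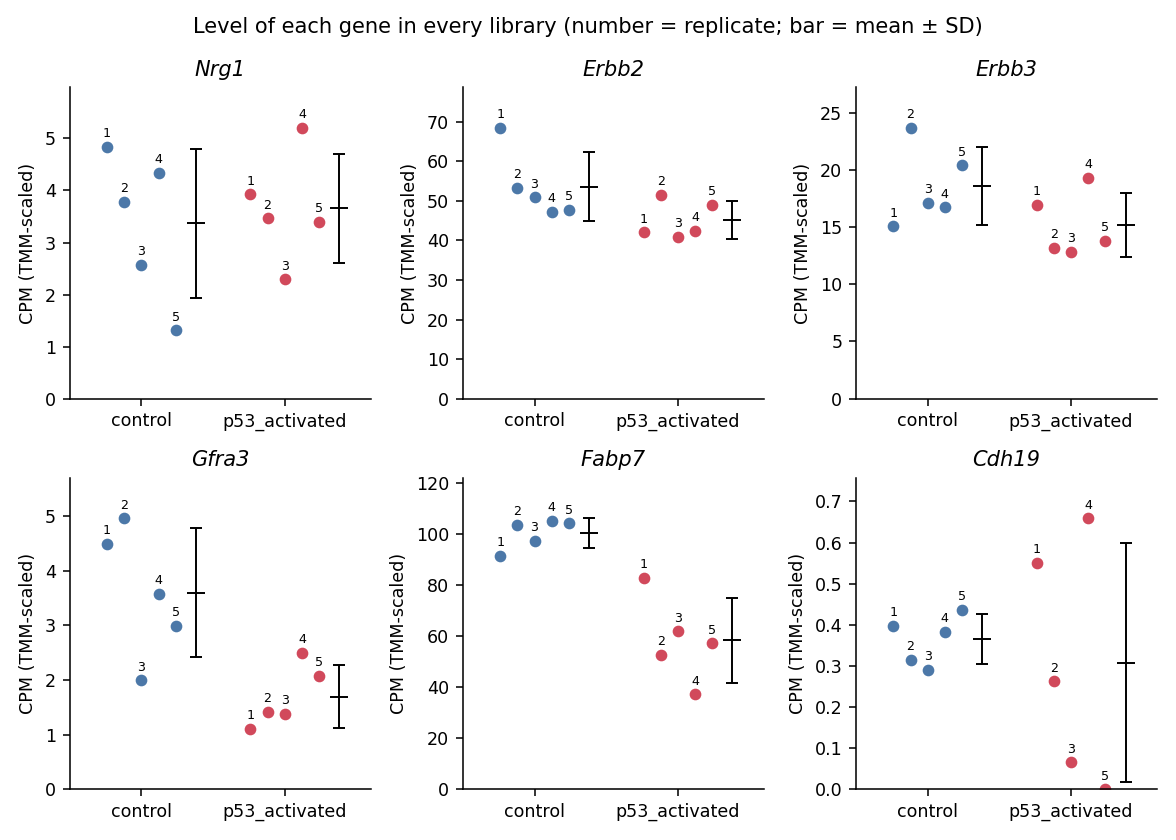
CPM (vertical axes, linear from 0) of each of the 6 genes in the 5 control (blue) and 5 p53_activated (red) libraries. Each point is 1 embryo labelled with its replicate number, and the black marks are the mean ± SD. Fabp7 alone has no overlap between the groups, and p53_activated replicate 4 has the lowest Fabp7 but the highest Gfra3, Erbb3, Nrg1 and Cdh19 of its group.

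The regions just before the Fabp7 start, the 1 gene called, and the Erbb2 start, for comparison, are shown as the stretch from 250 to 51 bases before the start that RefSeq gives on GRCm38.p6. Fabp7 is read on the plus strand at chr10:57784673-57784872 and Erbb2 on the plus strand at chr11:98412234-98412433. Capitals mark the CCAAT box, a common promoter element, on either strand (CCAAT, or ATTGG when it lies on the other strand).
Fabp7: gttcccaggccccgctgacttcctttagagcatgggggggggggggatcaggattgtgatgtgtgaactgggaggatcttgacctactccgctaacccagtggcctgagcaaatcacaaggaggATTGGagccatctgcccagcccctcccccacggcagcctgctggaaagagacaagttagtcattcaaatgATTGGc
Erbb2: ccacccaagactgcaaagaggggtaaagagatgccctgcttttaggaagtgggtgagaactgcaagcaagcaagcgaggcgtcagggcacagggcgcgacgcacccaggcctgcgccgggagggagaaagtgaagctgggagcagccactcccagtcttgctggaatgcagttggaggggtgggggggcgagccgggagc
The Fabp7 stretch held 2 CCAAT boxes, starting 126 and 56 bases before the start, and the Erbb2 stretch held 0. A CCAAT box was found in 28.4% of the same stretch of all 32851 promoters in the table. Neither stretch held the core letters of a SOX site (ACAAAG, in 13.6% of promoters) or an RBPJ site (GTGGGAA, 4.35%), or a p53 half-site (5.82%), each searched on both strands. Such matches describe the letters only, since no binding was measured. The Erbb2 stretch was richer in G and C (63.5%, with 9 CG pairs) than the Fabp7 stretch (57.0%, with 3 CG pairs), where the median over all promoters was 51.5%. The table held promoters for 2 of the 6 genes.

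The 6 genes are spread over 5 chromosomes. On GRCm38 (GENCODE M21), Fabp7 (ENSMUSG00000019874) lies on chromosome 10 from 57784881 to 57788450, and Erbb3 (ENSMUSG00000018166) lies on the same chromosome from 128567523 to 128589652. Erbb2 (ENSMUSG00000062312) lies on chromosome 11 from 98412470 to 98437716, and Cdh19 (ENSMUSG00000047216) on chromosome 1 from 110888326 to 110977584. Gfra3 (ENSMUSG00000024366) lies on chromosome 18 from 34689898 to 34720387, and Nrg1 (ENSMUSG00000062991) on chromosome 8 from 31814551 to 32884029. All 6 are protein-coding genes. Nrg1 shares 4.66% of its exon length with Gm26578 on the other strand and Erbb2 shares 0.173% with Mien1, while the other 4 genes share none.

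The levels of the 6 genes, set per length, covered a wide range. In CPM per kilobase of exon, control libraries held Fabp7 at 80.4 ± 4.64, Erbb2 at 10.3 ± 1.67 and Erbb3 at 3.09 ± 0.571 (SD, n = 5). Gfra3 followed at 1.80 ± 0.592, Nrg1 at 0.325 ± 0.138 and Cdh19 at 0.0852 ± 0.0141 CPM per kilobase. The order was the same in p53_activated libraries, and in both groups no gene's range overlapped that of the next. The narrowest gap in control libraries was between Erbb3, whose lowest library was at 2.50 CPM per kilobase, and Gfra3, whose highest was at 2.48. The merged exons of Nrg1 come to 10351 bases over many alternative forms, which lowers its value per length relative to a gene with 1 main form.

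Nrg1, the ligand, was low and variable and did not differ detectably between the groups. It was at 4.83, 3.78, 2.57, 4.34 and 1.31 CPM in control replicates 1 to 5 and at 3.92, 3.47, 2.29, 5.20 and 3.40 CPM in p53_activated replicates 1 to 5. The groups overlapped almost fully, with the lowest value in control replicate 5 and the highest in p53_activated replicate 4. The log2 fold change was 0.13 ± 0.33 (SE; edgeR adjusted p = 0.869), with a 95% interval from -0.58 to 0.83. Changes inside that interval are compatible with the data, but its ends are not a limit of detection. Gfra3, with an SE of 0.33 as well, was not called at -1.06. The sign of the Nrg1 value turned without control replicate 5 (-0.075) or p53_activated replicate 4 (-0.042).

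Erbb2, the kinase partner, was the steadiest of the pair of receptors. It was at 68.4, 53.3, 50.9, 47.2 and 47.7 CPM in control replicates 1 to 5 and at 42.0, 51.5, 40.9, 42.5 and 49.0 CPM in p53_activated replicates 1 to 5. Control replicate 1 was high, and the groups overlapped in p53_activated replicates 2 and 5. The log2 fold change was -0.24 ± 0.12 (SE; edgeR adjusted p = 0.239), with a 95% interval from -0.50 to 0.01. Without control replicate 1, where the value was closest to 0 among the fits that left out 1 library, it was -0.14.

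Erbb3, the neuregulin receptor of the Schwann lineage, overlapped between the groups too. It was at 15.1, 23.7, 17.1, 16.7 and 20.4 CPM in control replicates 1 to 5 and at 16.9, 13.2, 12.8, 19.3 and 13.8 CPM in p53_activated replicates 1 to 5. In p53_activated replicates 2, 3 and 5 it was below every control library, while replicates 1 and 4 lay inside the control range. The log2 fold change was -0.28 ± 0.16 (SE; edgeR adjusted p = 0.327), with a 95% interval from -0.63 to 0.06. Leaving out 1 library, it ranged from -0.39 (without p53_activated replicate 4, adjusted p = 0.174) to -0.18 (without control replicate 2, adjusted p = 0.616). The ratio of Erbb2 to Erbb3 counts was 2.99 ± 0.921 in control and 3.07 ± 0.716 in p53_activated libraries (SD, n = 5 each), and that of Nrg1 to Erbb3 was 0.191 ± 0.100 and 0.238 ± 0.0363. Both ratios overlapped between the groups.

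Gfra3, the artemin co-receptor, had a larger fall in its mean than any other of the 6 but was counted thinly, with 287 counts over the control and 170 over the p53_activated libraries. It was at 4.49, 4.95, 1.99, 3.57 and 2.99 CPM in control replicates 1 to 5 and at 1.10, 1.42, 1.37, 2.50 and 2.08 CPM in p53_activated replicates 1 to 5. Only control replicate 3 came down into the range of the p53_activated libraries, of which replicates 4 and 5 were above it. The log2 fold change was -1.06 ± 0.33 (SE; edgeR adjusted p = 0.0650), with a 95% interval from -1.77 to -0.36. It passed the test without control replicate 3 (-1.21, adjusted p = 0.0369) or p53_activated replicate 4 (-1.26, adjusted p = 0.0431) and with DESeq2 (-1.06, adjusted p = 0.0322). DESeq2 called 664 of 27213 genes with any count lower (2.44%), where edgeR called 398 of the 14528 genes that passed its filter (2.74%). These shares are over unlike sets of genes, and by number DESeq2 made more lower calls. Without control replicates 1 and 2, the libraries with the most Gfra3, the Gfra3 value was -0.73 (edgeR adjusted p = 0.325).

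Fabp7, the lipid carrier of glial precursors, fell. It was at 91.7, 103.7, 97.4, 105.2 and 104.4 CPM in control replicates 1 to 5 and at 83.0, 52.7, 62.0, 37.2 and 57.3 CPM in p53_activated replicates 1 to 5. Every p53_activated library was below every control library, as in 3.52% of all tested genes (every p53_activated library was above every control library in 4.54%). The mean went from 100.5 ± 5.79 to 58.4 ± 16.6 CPM (SD, 5 libraries per group). On the log2 scale the fitted change was -0.78 ± 0.16 (SE; edgeR adjusted p = 0.00767), with a 95% interval from -1.12 to -0.45. Control embryos were close to each other, with a coefficient of variation of 5.77%, against 28.4% among p53_activated embryos. The call held when any 1 library was left out (adjusted p from 0.000409 to 0.0252) and was lost without both control replicates 1 and 2, although the value there was -0.81 (adjusted p = 0.0511).

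Cdh19, the cadherin of Schwann cell precursors, was close to the limit of detection. Control replicates 1 to 5 held 7, 4, 7, 6 and 6 counts and p53_activated replicates 1 to 5 held 8, 5, 1, 20 and 0 counts. The control embryos were alike, whereas among p53_activated embryos 20 of the 34 counts came from replicate 4, the library with the most counts. Set to a common library size, replicate 4 was at 0.66 CPM and replicate 1 at 0.55 CPM. Replicates 2, 3 and 5 of that group were at 0.26, 0.07 and 0 CPM. The group totals of 30 counts (exact Poisson 95% interval 20.2 to 42.8) and 34 counts (23.5 to 47.5) cover counting error only. A fit that kept every gene with any count gave a log2 fold change of -0.19 ± 0.98 (SE; edgeR adjusted p = 0.945), so no difference was detectable at this depth and a large one could be missed.

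In the authors' deposited table, Fabp7 had a log2 fold change of -0.73 (adjusted p = 9.75e-05) and Gfra3 of -0.78 (adjusted p = 0.0294). The authors' deposited table gives -0.26 for Erbb3 (adjusted p = 0.351), -0.23 for Erbb2 (adjusted p = 0.252) and 0.09 for Nrg1 (adjusted p = 0.879). For Cdh19 the authors' deposited table lists -0.06 and no adjusted p. Thus Gfra3 passed a threshold of 0.05 in the authors' deposited table and with DESeq2 here (adjusted p = 0.0322), but not with edgeR (adjusted p = 0.0650). The deposited Gfra3 value of -0.78 had an SE of 0.26, and that of DESeq2 here was -1.06 with an SE of 0.35. Whether these 2 values are on the same scale was not tested.

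The 5 p53_activated embryos were not ordered alike in the 6 genes. Replicate 4, the library with the most counts, had the highest Gfra3, Erbb3, Nrg1 and Cdh19 of its group and also the highest Sox10 (24.7 CPM, against 13.5 to 19.8 CPM in the other 4), yet the lowest Fabp7. Replicate 1 had the highest Fabp7 and the lowest Gfra3. Sox10, the transcription factor that neural crest and glia share, was at 20.0 ± 3.64 CPM in control and 18.6 ± 4.31 CPM in p53_activated libraries (SD, n = 5 each; log2 fold change -0.10 ± 0.17, edgeR adjusted p = 0.777, and between -0.24 and 0.02 over 21 other settings, the last when control replicate 3 was left out). Set against Sox10 in the same library, Fabp7 was at a ratio of 5.13 ± 0.821 in control and 3.29 ± 1.06 in p53_activated libraries, and the groups overlapped through control replicate 3 (3.74) and p53_activated replicates 1 and 2 (4.19 and 3.90). The ratio of Erbb3 to Sox10 was 0.954 ± 0.257 and 0.831 ± 0.120, and that of Gfra3 to Sox10 was 0.191 ± 0.0854 and 0.0931 ± 0.0307, both with overlap.

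**Figure D2:**
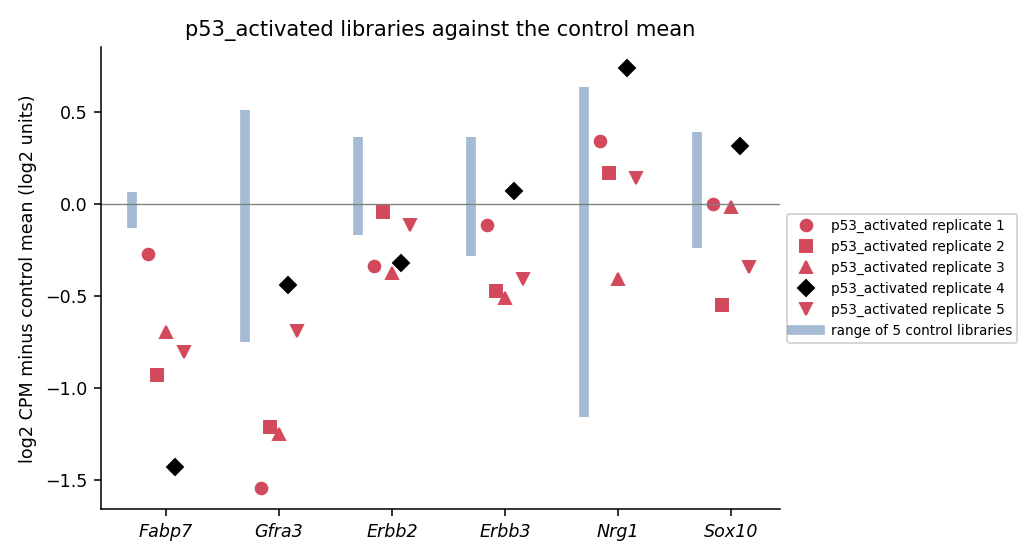
Difference in log2 CPM between each p53_activated library and the control mean (vertical axis, log2 units) for 5 of the 6 genes and for Sox10. Blue bars are the range of the 5 control libraries, red symbols are p53_activated replicates and the black diamond is replicate 4. For Fabp7 all 5 symbols lie below the control range, while for Erbb3, Nrg1 and Sox10 replicate 4 lies above the other p53_activated replicates.

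By profile over the 10 libraries, the genes nearest to each of the 5 tested genes were found among 11159 expressed genes by the root mean square difference of log2 CPM, each gene centred on its own mean. Nearest to Fabp7 were Ggh, Nudt13 and Tmem198, at 0.20, 0.23 and 0.24 log2 units, where the median gene was at 0.55. Nearest to Gfra3 were Klhl35, Tnnt1 and Lhx9, at 0.20 to 0.21, where the median was 0.72. Klhl35 was called lower (log2 fold change -1.02 ± 0.22, SE; edgeR adjusted p = 0.0101). Nearest to Erbb2 were Dirc2, Sh3glb1 and Galnt10 (0.08), nearest to Erbb3 were Rspry1, Sumf2 and Sgce (0.14 to 0.15), and nearest to Nrg1 were Nr3c1, Cpeb2 and Sema4b (0.20 to 0.29). The median gene was at 0.34 from Erbb2, 0.38 from Erbb3 and 0.60 from Nrg1, so the distances are not on a common footing between genes.

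Other genes of the glial lineage were read from a list of 25, of which 21 could be tested. Ttyh1 and Ncam1 fell and Serpine2 rose, while 18 did not pass, and the median log2 fold change was -0.17 against -0.01 over all tested genes. Over all tested genes, 2.74% were called lower and 4.49% higher. The groups did not overlap in these 3 genes, nor in Zeb2, a crest and glial regulator that was lower in every p53_activated library but not called (-0.36 ± 0.14, edgeR adjusted p = 0.126). Over all tested genes there was no overlap in 3.52% (lower) and 4.54% (higher).

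Ncam1, an adhesion molecule of neurons and glia, fell from 196.8 ± 80.5 to 99.0 ± 16.0 CPM (SD, n = 5 each), with a fitted log2 change of -0.99 ± 0.24 (edgeR adjusted p = 0.0347). Its control mean rested on replicates 1 and 2, at 318 and 239 CPM, against 125.8 to 154.7 CPM in the other 3. Without both the log2 fold change was -0.52 (adjusted p = 0.0261), and the call was lost without control replicate 2 or any 1 p53_activated replicate (adjusted p from 0.0511 to 0.0770), with the replicate number as a block (adjusted p = 0.108) and with every gene with any count kept (adjusted p = 0.109). Ttyh1, a membrane protein of neural precursors, fell from 14.5 ± 4.74 to 7.19 ± 1.90 CPM, with a fitted log2 change of -1.02 ± 0.23 (adjusted p = 0.0139). It shares 6.65% of its exon length with other genes, and its call was lost without control replicates 1 and 2 (adjusted p = 0.0960) and without p53_activated replicates 4 and 5 (adjusted p = 0.0588). Serpine2, a secreted protease inhibitor, rose from 62.9 ± 20.9 to 117.3 ± 12.9 CPM, with a fitted log2 change of 0.90 ± 0.19 (adjusted p = 0.0122).

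Ngfr, the low-affinity neurotrophin receptor of crest and glia, was at 24.6 CPM in p53_activated replicate 4 and at 7.30 to 11.4 CPM in the other 4 of that group, against 6.06 to 12.0 CPM in control libraries. It did not pass (log2 fold change 0.37 ± 0.32, edgeR adjusted p = 0.546). Without replicate 4 its log2 fold change was -0.06. Foxd3, a crest and early glial regulator, was at 7.94 to 16.4 CPM in control and 7.49 to 10.3 CPM in p53_activated libraries and did not pass (-0.39 ± 0.21, adjusted p = 0.282). Without control replicate 3, its highest library, it was -0.18 (adjusted p = 0.624). S100b, Dhh, Mal and Gjc3, also genes of the Schwann cell lineage, had too few counts to be tested.

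**Figure D3:**
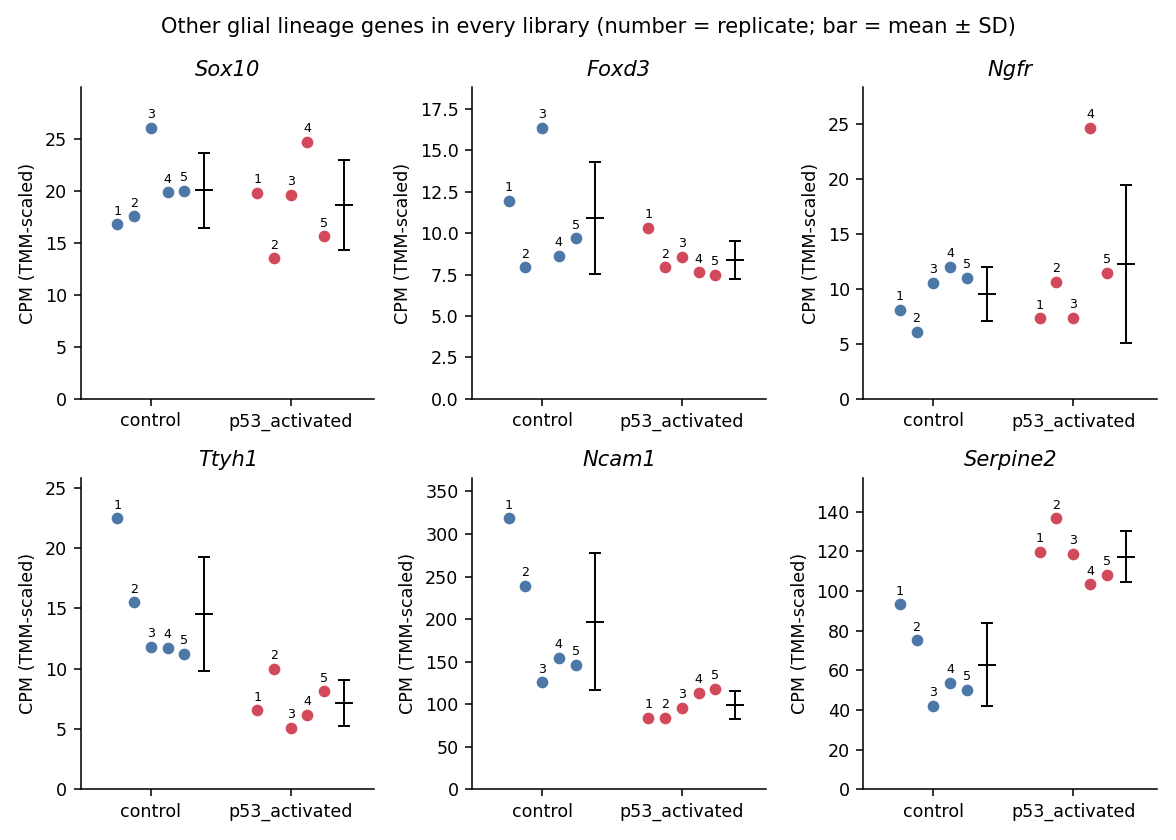
CPM (vertical axes, linear from 0) of 6 other genes of the glial lineage in the 5 control (blue) and 5 p53_activated (red) libraries, 1 point per embryo labelled with its replicate number, with mean ± SD in black. Ttyh1 and Ncam1 are lower and Serpine2 higher with no overlap, Sox10 and Foxd3 overlap, and Ngfr is high in p53_activated replicate 4 alone.

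Of the ErbB pathway beyond Nrg1, Erbb2 and Erbb3, 25 of 31 genes were tested, with 1 called lower, 0 called higher and a median log2 fold change of 0.04 (edgeR; 4 had an unadjusted p under 0.05, and DESeq2 called 1 higher). The 1 of 25 called lower by edgeR is close to the 2.74% of all tested genes called lower. Adam10, a protease that sheds membrane proteins, was at 63.5 ± 3.67 CPM in control and 49.8 ± 6.16 CPM in p53_activated libraries (SD, n = 5 each; log2 fold change -0.35 ± 0.10, edgeR adjusted p = 0.0494). That call was lost in 16 of 21 other settings, among them without any 1 library other than p53_activated replicate 1 (adjusted p up to 0.131). Cbl, a ubiquitin ligase that marks active receptors for breakdown, was at 0.85 ± 0.25 (adjusted p = 0.0523), and was called higher with DESeq2, with non-robust dispersions, and when control replicate 3 or p53_activated replicate 1 was left out. It was at 40.6 CPM in p53_activated replicate 4, and without that library its log2 fold change was 0.55 (adjusted p = 0.0911). Without p53_activated replicates 4 and 5 it was 0.47 (adjusted p = 0.210). The other receptors Egfr (0.23 ± 0.32, adjusted p = 0.734) and Erbb4 (-0.23 ± 0.34, adjusted p = 0.742) did not pass. Erbb4 was at -0.0095 without control replicate 1, at -0.053 without p53_activated replicate 1 and at 0.068 without control replicates 1 and 2, and Egfr was at 0.43 without control replicate 1. The neuregulins Nrg2 and Nrg3 had too few counts to be tested, and Nrg4 did not pass (-0.91 ± 0.54, adjusted p = 0.349).

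Around Gfra3, 7 of 8 genes of the GDNF family and its receptors were tested and 0 passed (edgeR; 3 had an unadjusted p under 0.05, and DESeq2 also called 0). Their median log2 fold change was -0.60. All 7 values were below 0, as were 7463 of all 14528 tested genes, but they ranged widely, from Gdnf at -0.0024 ± 0.51 and Gfra1 at -0.15 ± 0.25 to Gfra4 at -0.69 ± 0.30 (adjusted p = 0.179). Ret, the kinase that signals for every GFRA co-receptor, was at -0.65 ± 0.25 (adjusted p = 0.141) and Gfra2 at -0.60 ± 0.27 (adjusted p = 0.196). Ret was at 6.48 to 10.3 CPM in control and 2.77 to 7.77 CPM in p53_activated libraries. Artn, which encodes artemin, the ligand of GFRA3, had 35 counts over the control and 34 over the p53_activated libraries and was not tested. Of these, 20 were in control replicate 3 and 22 in p53_activated replicate 4, the libraries with the most counts of their groups. P53_activated replicates 2 and 3 held 0. Set to a common library size, Artn was at 0.83 CPM in control replicate 3 and at 0.16 to 0.40 CPM in the other control libraries. It was at 0.72 CPM in p53_activated replicate 4, 0.62 CPM in replicate 1 and 0.21 CPM in replicate 5.

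Among relatives of Fabp7 and Cdh19, 8 of 15 could be tested. EdgeR called 1 of them higher and 0 lower, and 3 had an unadjusted p under 0.05. Of all tested genes 4.49% were called higher and 2.74% lower, and 3.52% were lower with no overlap between the groups. Cdh24, another type II cadherin, rose (log2 fold change 1.48 ± 0.42, SE; edgeR adjusted p = 0.0459), a call lost in 10 of 21 other settings, among them without any of control replicates 2 to 5 or p53_activated replicates 2 to 5 (adjusted p up to 0.107). Without p53_activated replicates 4 and 5 it was 0.99 (adjusted p = 0.217). The fatty acid binding gene Fabp3 was at 2.72 ± 0.481 and 1.42 ± 0.232 CPM (-0.94 ± 0.30, adjusted p = 0.0711) with no overlap between the groups, though 19.6% of its exon length is shared with other genes, and Fabp5 was at -0.26 ± 0.16 (adjusted p = 0.374). Cdh6 (0.20 ± 0.24) and Cdh11 (0.22 ± 0.20), cadherins of crest and mesenchyme, did not pass. Cdh20 was at 1.04 ± 0.37 (edgeR adjusted p = 0.0985) and did not pass either. The 8 values ranged from -1.15 to 1.48, with a median of -0.03.

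Of the marker lists of other cell types, those of neurons and melanoblasts had most calls. For comparison, edgeR called 2.74% of all tested genes lower and 4.49% higher. Of 11 neuronal markers 9 were called lower (median log2 fold change -0.87), and their summed level was 708 to 923 CPM in control and 360 to 571 CPM in p53_activated libraries. Of 7 melanoblast markers 4 were tested and 2 were called lower, with summed levels of 27.9 to 57.0 and 10.7 to 21.1 CPM. Of 11 markers of the neural tube and radial glia, cells that also make Fabp7, 0 were called by edgeR (3 had an unadjusted p under 0.05), the median was 0.29 and the summed level was 167 to 305 CPM in control and 209 to 279 CPM in p53_activated libraries. Slc1a3 was the only 1 of these 11 with a negative log2 fold change (-0.54). It was at 6.02 to 13.5 CPM in control and 4.83 to 8.17 CPM in p53_activated libraries, with overlap. Of 8 markers of arch mesenchyme 1 was called lower, and of 4 epithelial markers and 7 tested markers of blood, endothelium and macrophages 0 were called (2 and 0 with an unadjusted p under 0.05). The part of these cell types in the values of Fabp7 and the other glial genes was not tested.

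**Figure D4:**
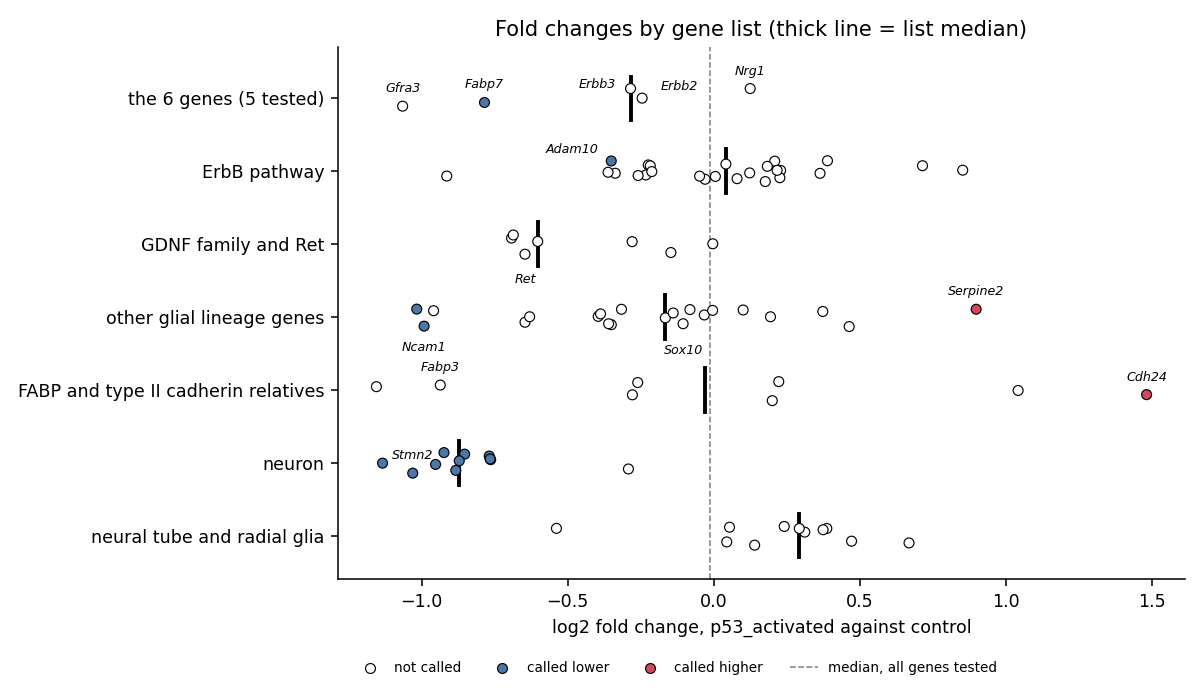
Log2 fold change (horizontal axis) of each tested gene by list, with open circles for genes that were not called, blue for called lower and red for called higher at an edgeR adjusted p below 0.05. The thick line is the list median and the dashed line the median of all tested genes (-0.01). Fabp7 is the 1 called gene of its list, the 7 GDNF family genes all lie below 0, and 9 of 11 neuronal markers are called lower.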

How the data were processed

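The deposited count table gives whole-number counts by Ensembl identifier, with columns assigned to embryos through the numbers in the labels' descriptions. The authors' deposited comparison table lists, per the file headers, an average normalized signal, log2 fold changes and their errors, a Wald score and p-values. Per the submitters' processing notes, the build was GRCm38 and the tools were DESeq2 1.14.1, HTSeq 0.6.1, SAMtools 1.3.1 and HISAT2 2.0.4, with no roles given. No annotation release or strand setting was given in the sources used here, so reads of genes that overlap could have gone to either.

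Low genes were removed with filterByExpr (minimum count 10, minimum total 15). TMM scaling and the robust quasi-likelihood test of edgeR 4.0.16 (R 4.3.3) were applied to all 10 libraries without covariates. P-values were adjusted by Benjamini-Hochberg over 14528 genes and called below 0.05. SEs are the absolute log2 fold change over the root of F. Log2 CPM took a prior count of 2. The fit was tested on simulated data. GENCODE M21 held 99.5% of the identifiers. P-values are for the difference between the genotypes, judged against the spread between embryos. The 6 genes, the lists and the tests were chosen with earlier results of these data known. By rule the text names the 6 genes, up to 8 called genes per context list, Sox10, Foxd3, Ngfr, Ret, Artn, Egfr and Erbb4, others needed to say that they did not pass, the 3 nearest profiles per gene, and Cdkn1a and Mdm2 as a check of the labels. Some genes of the context lists are not reported here and were left out of the list counts. Mdm2 was 24.5 ± 1.06 CPM in control and 47.3 ± 4.41 CPM in p53_activated libraries. Alternatives were other scalings (RLE, upper quartile, none), other filters, DESeq2 1.42.0, limma-voom (limma 3.58.1), non-robust dispersions, a replicate block and leaving out libraries.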

Additional observations from a re-analysis of the deposited data

Results flagged for a closer look

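Among 36 groups of 5 libraries, 18 genes in each of the 2 genotypes, 3 held a library whose gap to its nearest neighbour was over 0.71 of the group's range (Dixon's 95% limit for 5 values), where chance gives about 1 in 20 groups. Of the 6 genes, this was so for Erbb2 in control replicate 1, at 68.4 CPM. P53_activated replicate 4 stood out in Ngfr, at 24.6 CPM, and in Cdh24, at 12.6 CPM.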

How the results depend on the processing

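Over 21 other settings Fabp7 was lower in each and called in 20, the exception being the fit without control replicates 1 and 2 (-0.81, adjusted p = 0.0511). Gfra3 was lower in each and called in 4: DESeq2 (-1.06), without control replicate 3 or p53_activated replicate 4, and without p53_activated replicates 4 and 5 (-1.44). Leaving out 1 library, Gfra3 ranged from -1.26 to -0.92. Nrg1 ranged from -0.075 (without control replicate 5) to 0.42 (without control replicates 1 and 2), was 0.29 without control replicate 1, and was -0.042 without p53_activated replicate 4 and -0.049 without p53_activated replicates 4 and 5. Erbb2 and Erbb3 were called in 0 of 21. The genes called lower among the 6 numbered 2 with DESeq2 and without p53_activated replicates 4 and 5, 0 without control replicates 1 and 2, and 1 to 2 when 1 library was left out. All genes called lower numbered 664 with DESeq2, 194 without control replicates 1 and 2, and 192 to 433 with 1 library left out, and those called higher 430 to 707. In the ErbB list the lower calls were 0 with total counts, with every gene with any count, with at least 1 CPM in 5 libraries, with non-robust dispersions, with the replicate block, without control replicates 1 and 2 and without p53_activated replicates 4 and 5, and 0 to 1 with 1 library left out. Its higher calls were 1 with DESeq2 and non-robust dispersions and 0 to 1 with 1 library left out. In the list of other glial genes the lower calls were 1 with every gene with any count, with the replicate block and without control replicates 1 and 2, 0 without p53_activated replicates 4 and 5, and 1 to 2 with 1 library left out. Among the relatives of Fabp7 and Cdh19 the lower calls were 1 with DESeq2 and without control replicates 1 and 2, and the higher calls 0 with total counts and without p53_activated replicates 4 and 5, and 0 to 1 with 1 library left out. The cause of these changes was not tested. Cdh19 could be fitted only with every gene with any count and with DESeq2.

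Each library is 1 embryo, and the replicate numbers are not said to mark a litter. Same-numbered libraries deviated together little (correlations of -0.053 to 0.11), with 2 of 10 libraries closest to their own number. With the replicate block Fabp7 was at -0.83 (adjusted p = 0.0135) and Gfra3 at -1.06 (adjusted p = 0.105), and all calls numbered 266 lower and 538 higher. Depth limits the thinly counted genes, Cdh19, Gfra3 and Nrg1 among the 6.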
